A study of Mus musculus with 9 samples.

Results

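The alpha, mu and theta classes of glutathione transferase were followed in mouse liver after 7 days of doxycycline (Dox) or tetracycline (Tc) in the drinking water. The 10 genes were taken by symbol from the deposited table of normalized counts, out of 32285 gene identifiers. They are the alpha-class genes Gsta1, Gsta2, Gsta3 and Gsta4, the mu-class genes Gstm1, Gstm2, Gstm3, Gstm4 and Gstm6, and the theta-class gene Gstt3. Of the 10 genes, 9 reached a mean of 10 normalized counts over the 9 libraries and were tested among 12100 genes. Gsta1 did not reach this level, and its values are described without a test.

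Glutathione transferases join the tripeptide glutathione to electrophilic molecules, such as drug metabolites and products of lipid peroxidation, and the conjugates are then exported from the cell and broken down to mercapturates. The liver is a main site of this reaction, and soluble alpha and mu enzymes are among its abundant proteins. Many of the genes carry binding sites for NRF2, a regulator activated by electrophiles, and several respond to the xenobiotic receptors CAR and PXR.

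All mice were Tet-OFF animals, 4 weeks old and male by the study's description, with a CreERT2 allele driven by the ubiquitous CAG promoter, a tTA allele behind a loxP-flanked stop, and a tetO-Venus-ires-mCherry reporter. Every group was given tamoxifen, which removes the stop. The control group (3 libraries) received tamoxifen alone, whereas the Dox group (3 libraries) and the Tc group (3 libraries) also received their drug at 2 mg/mL with sucrose for 7 days. Without a drug tTA is active, so the control livers express the reporter and the treated livers have it switched off. The effects of a drug and of the reporter state therefore cannot be told apart, and the labels do not say whether the control mice drank sucrose water. Total RNA was taken from powdered whole liver, in which fewer cells of a type and less RNA per cell cannot be told apart.

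Reads counted on genes ranged from 7426136 to 12183041 per library. In every group, library 3 could be approximated by mixing libraries 1 and 2, with fitted weights of 58.6% and 40.9% in the controls, 61.3% and 34.4% with Dox, and 59.7% and 36.9% with Tc. Among genes with a mean of at least 50 that differed over 2-fold between libraries 1 and 2, library 3 lay between them for 2972 of 2987 genes with Dox and 470 of 473 with Tc. The 3 libraries of a group were therefore not taken as 3 independent livers, adjusted p-values from 9 libraries are too small, and the calls are also given for the 6 libraries numbered 1 and 2. The Dox libraries 1 and 2 also differed from each other. Cyp2b10, the main CAR target, stood at 22.1 normalized counts in Dox library 1 and 7464 in library 2, and Hmox1, the heme oxygenase gene, at 185 and 2083. Hepatocyte markers diverged as well. Between Dox libraries 1 and 2, the albumin gene Alb stood at 607453 and 255548 (956160 to 1408836 in the controls), Apoa1 at 45870 and 22250 (44037 to 44677), and Ttr at 55767 and 6796 (32044 to 37009). The fatty acid binding protein gene Fabp1 stood at 3920 and 31.1 (1296 to 1669), and the tyrosine aminotransferase gene Tat at 13817 and 159364 (11817 to 21169). Of these 5 markers limma called 0 with Dox, with 0 at an unadjusted p under 0.05, and DESeq2 with 9 libraries called Alb lower and Tat higher.

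The genes sit in few places of the GRCm38 (mm10) genome. On chromosome 9, Gsta4 (ENSMUSG00000032348) spans chr9:78182774-78209349 and Gsta1 (ENSMUSG00000074183) spans chr9:78230656-78242684, both on the plus strand, and Gsta2 (ENSMUSG00000057933) spans chr9:78331018-78355788 on the minus strand. Gsta3 (ENSMUSG00000025934) lies apart at chr1:21240589-21265661 on the plus strand. The 5 mu genes form a cluster on the minus strand of chromosome 3, with Gstm6 (ENSMUSG00000068762) at chr3:107938847-107943749, Gstm3 (ENSMUSG00000004038) at chr3:107963696-107969283, Gstm2 (ENSMUSG00000040562) at chr3:107981702-107986453, Gstm1 (ENSMUSG00000058135) at chr3:108012255-108017973 and Gstm4 (ENSMUSG00000027890) at chr3:108040408-108044894. Gstt3 (ENSMUSG00000001665) spans chr10:75774115-75781414 on the minus strand.

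The coding sequences decide how well reads of 86 bases can be assigned, since the authors counted uniquely mapped reads only. Gsta1 and the gene model Gm3776 shared 670 of 672 coding bases (99.7%), and Gsta1 and Gsta2 shared 655 of 669 (97.9%). Of the 790 windows of 86 bases in the longest Gsta1 transcript, 84.3% also occurred in Gsta2, Gm3776 or Gm10639, whereas 40.1% of the Gsta2 windows occurred in another gene. The share was 12.2% for Gstm1 and 18.2% for Gstm3, and none of the windows of Gsta3, Gsta4 and Gstm4 was shared. The counts of Gsta1 and, to a lesser degree, Gsta2 are therefore uncertain and may leave out reads that matched several genes. For Gstt3, 24.5% of the windows were shared with the overlapping gene model Gm20441. The stretch below, coding bases 582 to 667 counted from the start codon in the GENCODE transcripts, is 1 read long and holds 1 difference between Gsta1 and Gm3776 and 6 between Gsta1 and Gsta2. It is shown because a read from here can be assigned only through these bases, and capitals mark the bases that differ from Gsta1.
Gsta1: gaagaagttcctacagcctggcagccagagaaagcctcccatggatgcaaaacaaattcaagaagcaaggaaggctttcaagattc
Gm3776: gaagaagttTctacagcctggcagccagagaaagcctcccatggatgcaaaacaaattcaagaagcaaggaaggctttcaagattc
Gsta2: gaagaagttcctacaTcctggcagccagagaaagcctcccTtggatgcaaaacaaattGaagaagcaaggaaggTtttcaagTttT

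Gsta1 and Gsta2 also resemble each other upstream. RefSeq promoter windows (GRCm38.p6) were found for 9 of the 10 genes. Over the 250 bases before their RefSeq starts, Gsta1 and Gsta2 were identical at 184 of 239 aligned bases, and over the last 100 bases at 85 of 95. The windows of chr9:78230419-78230668 (plus strand, Gsta1) and chr9:78347146-78347395 (minus strand, Gsta2) are given 5′ to 3′, with the longest run they share, of 29 bases, in capitals.
Gsta1: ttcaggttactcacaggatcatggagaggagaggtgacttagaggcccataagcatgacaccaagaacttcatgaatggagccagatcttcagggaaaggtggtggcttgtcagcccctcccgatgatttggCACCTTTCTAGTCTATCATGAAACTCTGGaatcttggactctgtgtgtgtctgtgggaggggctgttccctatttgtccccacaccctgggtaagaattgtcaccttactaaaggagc
Gsta2: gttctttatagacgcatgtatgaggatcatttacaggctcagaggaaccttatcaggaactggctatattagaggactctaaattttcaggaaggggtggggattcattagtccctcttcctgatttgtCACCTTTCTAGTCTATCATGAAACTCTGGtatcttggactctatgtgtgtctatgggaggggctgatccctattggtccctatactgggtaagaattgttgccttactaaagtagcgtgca
The core of the antioxidant response element bound by NRF2, TGACNNNGC, was searched on both strands. It occurred in 1 of the 9 genes, Gsta3, and in 10.2% of all 32851 promoter windows of the same length. The 9 genes had 14 windows, so a count per gene is set here beside a share per window. Only these 250 bases were searched, so sites further upstream or elsewhere in the genes would be missed. The Gsta3 window, chr1:21240335-21240584 on the plus strand, is shown because it holds that match, in capitals, which begins 121 bases before the start.
Gsta3: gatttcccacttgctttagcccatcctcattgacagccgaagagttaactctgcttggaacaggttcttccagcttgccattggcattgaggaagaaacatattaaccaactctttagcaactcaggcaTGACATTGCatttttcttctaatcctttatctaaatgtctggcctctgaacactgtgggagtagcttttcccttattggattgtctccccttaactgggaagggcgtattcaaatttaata

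Per kb of the longest protein-coding transcript, Gstm1 (2233 ± 104 normalized counts per kb, SD over 3 libraries) and Gsta3 (2377 ± 153) were the most abundant members in the control livers and did not differ beyond their spread. Gstt3 (271 ± 56.6), Gsta4 (232 ± 62.2) and Gstm2 (209 ± 65.6) followed at levels within their spread of each other. Gstm4 (112 ± 11.3) and Gstm6 (109 ± 15.3) came next, then Gstm3 (45.3 ± 2.28) and Gsta2 (13.0 ± 1.39). Gsta1 was at 0 in all 3 control libraries. With the length of all annotated exons in place of the longest transcript, Gsta3 fell to 797 ± 51.3 per kb, below Gstm1 (1954 ± 91.4), so the order of these genes depends on the transcript assumed. In the Dox livers the order was led by Gstm1 (8212 ± 2474 per kb), followed by Gsta3 (3583 ± 2026), Gsta4 (582 ± 193), Gstm2 (420 ± 51.3) and Gstm3 (381 ± 66.2). Per kb of the longest transcript, the mu members made up 46.7% to 49.1% of the summed level of all members in the controls. Their share was 64.5% to 73.0% with Dox and 47.4% to 56.5% with Tc. With the length of all annotated exons, the mu share was 65.3% to 68.7% in the controls, 79.3% to 83.4% with Dox and 66.2% to 74.9% with Tc. The summed normalized counts of the 10 members were 3.25, 1.58 and 2.54 times the control mean in Dox libraries 1, 2 and 3, and 2.36, 1.27 and 1.85 times in Tc libraries 1, 2 and 3.

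**Figure D1:**
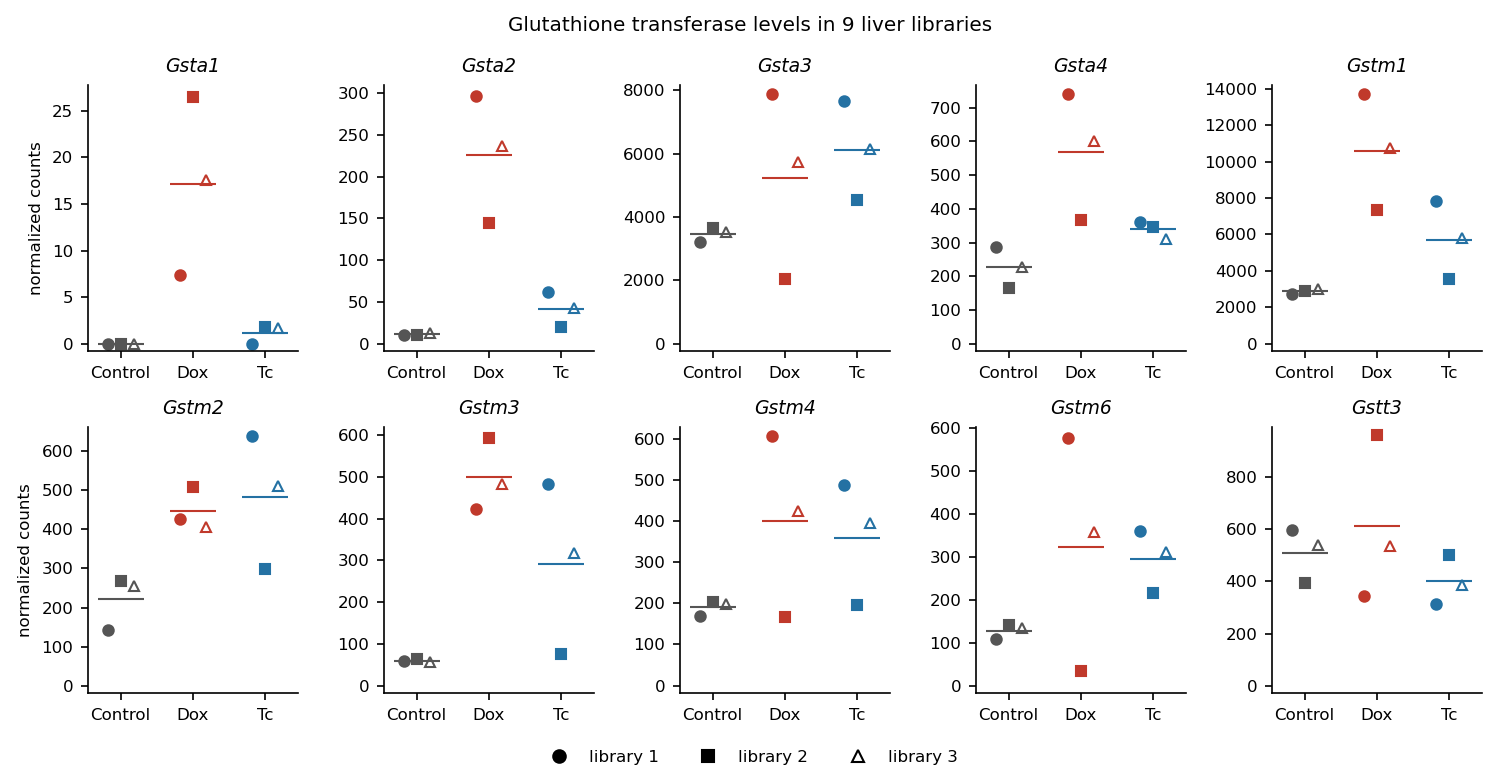
Normalized counts (y axis, linear) of the 10 glutathione transferase genes in the 3 control, 3 Dox and 3 Tc libraries, with the group mean as a line and library 3, which lies close to a mixture of libraries 1 and 2, as an open triangle. Gsta2, Gsta4, Gstm1 and Gstm3 lie above every control in all Dox libraries. Gsta3 and Gstm6 are high in Dox library 1 and below every control in Dox library 2. Gstm4 is high in Dox library 1 and narrowly under the lowest control in Dox library 2 (166.8 against 168.3).

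The first comparison asked which members changed in livers exposed to Dox. In the limma fit of 9 libraries, 4 of the 9 tested members rose by more than 2-fold at an adjusted p under 0.05 (Gsta2, Gsta4, Gstm1 and Gstm3), and none fell. Of all 12100 genes, 1.14% were called higher and 3.86% lower in the same comparison, or 138 and 467 genes, and 245 and 326 when libraries were scaled to the same total. The members' median log2 fold change was 1.05, against 0.00 over all genes tested, and all 9 fitted values were positive. Without libraries 3, limma called 0 members and 0 of all 12100 genes, while 5 of the 9 members and 8.6% of all genes had an unadjusted p under 0.05. DESeq2 called the same 4 members with 9 libraries, where it called 3.2% of all genes higher, and 3 members (Gsta2, Gstm1 and Gstm3) with 6 libraries, where it called 0.355% of all genes higher. Leaving out any one control library or Dox library 3 left Gsta2 as the 1 member called by limma, leaving out Tc library 3 ended the call of Gsta4, and leaving out Dox library 2 added Gstm4 and Gstm6.

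Among the alpha genes, Gsta2, an enzyme inducible in rodent liver by antioxidants and drugs, changed most. It stood at 10.6, 10.6 and 12.7 normalized counts in the control libraries and at 296, 144 and 237 in the Dox libraries. The lowest Dox value was thus far above the highest control value, and the Dox mean was 19.9 times the control mean. The fitted log2 fold change was 4.14 ± 0.41 (SE, 9 libraries), with a limma adjusted p of 0.00503. With 6 libraries it was 4.16 ± 0.64 with a limma adjusted p of 0.559 and 4.37 ± 0.75 by DESeq2, with an adjusted p of 9.01e-06.

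Gsta1, the close copy of Gsta2, had 0 reads in each control library, where a count of 0 allows up to 3 reads. It had 7, 23 and 20 reads in the Dox libraries, or 7.4, 26.5 and 17.6 normalized counts. The Dox mean was at least 5.33-fold higher than the floor of 3 reads per library, which corresponds to 3.21 normalized counts. Unlike Gsta2, Gsta1 was higher in Dox library 2 than in library 1. The near-identical model Gm3776 had 0 reads in each control library and 3, 12 and 10 reads in the Dox libraries, with the same order of libraries 1 and 2.

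Gsta4, which clears 4-hydroxynonenal and related lipid peroxidation products, stood at 288, 166 and 226 normalized counts in the controls and at 740, 367 and 600 with Dox. The groups did not overlap, although the control libraries themselves ranged widely. Its log2 fold change was 1.30 ± 0.28 with a limma adjusted p of 0.0286, and with 6 libraries 1.25 ± 0.43 with an adjusted p of 0.566 by limma and 0.268 by DESeq2. Gsta3, the enzyme that protects mice from aflatoxin B1 epoxide, stood at 3220, 3658 and 3512 in the controls and at 7890, 2051 and 5720 with Dox. Dox library 1 was thus above and Dox library 2 below every control, and the log2 difference of 0.39 ± 0.44 did not pass the limma test (adjusted p = 0.588). It turned to -0.75 with library 2 as the only Dox library and to -0.01 without library 1.

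Among the mu genes, Gstm1, the main mu enzyme of mouse liver, stood at 2730, 2912 and 2993 normalized counts in the controls and at 13692, 7319 and 10746 with Dox. Every Dox library was above every control, with library 2 at 2.54 times and library 1 at 4.76 times the control mean. The log2 fold change was 1.83 ± 0.31 with a limma adjusted p of 0.0150, and 1.89 ± 0.53 by DESeq2 with 6 libraries, with an adjusted p of 0.0386.

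Gstm3, a mu gene of low level in the controls, stood there at 58.2, 62.8 and 57.2 normalized counts and at 422, 594 and 484 with Dox. It was the member with the narrowest relative spread among the controls after Gstm1, and its Dox values were 7.11 to 9.99 times the control mean. The log2 fold change was 3.04 ± 0.57 with a limma adjusted p of 0.0189, and 3.07 ± 0.81 by DESeq2 with 6 libraries, with an adjusted p of 0.0220. Gstm1 and Gstm3 shared 89.5% of coding bases, the closest pair among the mu members, and 12.2% and 18.2% of their read windows occurred in other genes.

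The remaining mu genes did not pass the test with Dox. Gstm2 stood at 142, 269 and 256 normalized counts in the controls and at 425, 508 and 406 with Dox, which did not overlap. Its log2 difference was 1.05 ± 0.32 with a limma adjusted p of 0.0746. By DESeq2 with 9 libraries it was 0.996 ± 0.343 with an adjusted p of 0.0263, just under the 2-fold limit. With 6 libraries the DESeq2 adjusted p was 0.405. Gstm4 stood at 168, 204 and 198 in the controls and at 608, 167 and 425 with Dox, and its log2 difference was 0.88 ± 0.48 with a limma adjusted p of 0.254. Gstm6 stood at 108, 142 and 135 in the controls and at 577, 34.5 and 357 with Dox. The Dox libraries of both genes fell on either side of the controls, though Gstm4 in library 2 (166.8) was only narrowly under the lowest control (168.3). Gstm6 differed 16.7-fold between Dox libraries 1 and 2. Its log2 difference was 0.60 ± 0.87 with a limma adjusted p of 0.673, and it was -1.86 with library 2 as the only Dox library and 2.17 with library 1.

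Gstt3, the theta member, stood at 598.1, 391.9 and 540.3 normalized counts in the controls and at 344, 962 and 534 with Dox. Its order within the Dox group was the reverse of that of Gsta3 and Gstm6, with the highest value of the series in library 2. The log2 difference of 0.16 ± 0.36 did not pass the limma test (adjusted p = 0.791) and was -0.23 without Dox library 2.

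**Figure D2:**
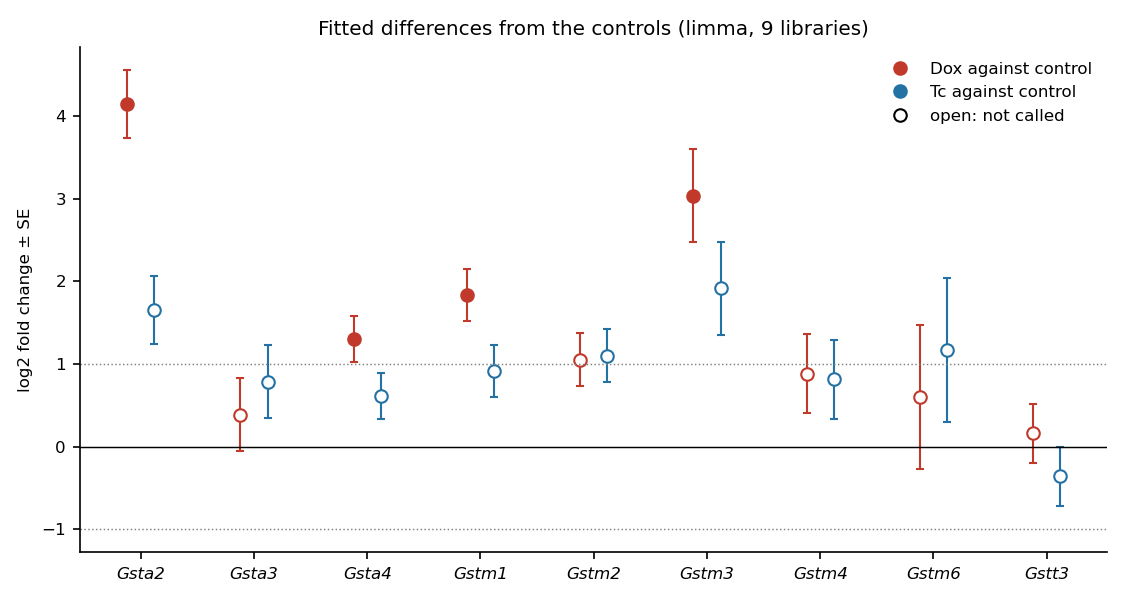
Fitted log2 fold changes (y axis, ± SE) of the 9 tested members for Dox against control and Tc against control, limma with 9 libraries, with filled points for genes called over 2-fold at an adjusted p under 0.05. Gsta2, Gsta4, Gstm1 and Gstm3 are filled for Dox, and no point is filled for Tc.

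The second comparison asked the same of Tc, a related antibiotic, at the same dose and time. The limma fit of 9 libraries called 0 of the 9 tested members, while 4 had an unadjusted p under 0.05, as did 11.7% of all genes, and DESeq2 called 3 (Gsta2, Gstm2 and Gstm3). Of all genes, 0.0413% were called higher by limma and 0.529% by DESeq2. With 6 libraries neither tool called a member, and 1 member had an unadjusted p under 0.05 by limma and 3 by DESeq2, against 1.98% and 2.63% of all genes. The median log2 fold change of the members was 0.92, against 0.00 over all genes, and 8 of the 9 values were positive.

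Gsta2 stood at 61.5, 19.8 and 43.0 normalized counts with Tc, each above the controls, with a log2 difference of 1.65 ± 0.41 (limma adjusted p = 0.187). Gstm3 stood at 483, 75.5 and 318, with a log2 difference of 1.92 ± 0.57 (limma adjusted p = 0.267). For both genes Tc library 1 was far above the controls and Tc library 2 was close to them. Gsta1 had 0, 2 and 2 reads with Tc, at or under the floor of 3 reads.

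Gstm1 stood at 7816, 3552 and 5788 normalized counts with Tc, with a log2 difference of 0.92 ± 0.31 (limma adjusted p = 0.333). Gsta3 stood at 7655, 4531 and 6139, so that its Tc libraries, unlike its Dox libraries, were all above the controls. Gsta4 stood at 362, 347 and 310, the narrowest Tc spread of any tested member relative to its mean. Gstm2 stood at 639, 298 and 510, Gstm4 at 487, 195 and 395, and Gstm6 at 360, 215 and 312. Gstm4 in Tc library 2 lay within the control range, and Gstm2 and Gstm6 lay above it in every Tc library. Gstt3 stood at 312, 501 and 387, with a log2 difference of -0.35 ± 0.36 (limma adjusted p = 0.772).

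All libraries of a drug lay above all control libraries for 5 of the 9 tested members with Dox (Gsta2, Gsta4, Gstm1, Gstm2 and Gstm3) and for 7 with Tc (the same 5 genes with Gsta3 and Gstm6). The same held for 16.1% and 15.8% of all genes tested. The controls are shared by both comparisons, and libraries 3 do not add an independent liver to either.

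The third comparison set Dox against Tc, which differ in the position of a hydroxyl group, at the same dose in drinking water for the same time. It was the 1 pair of compounds in the series. Limma called 0 of the 9 tested members with 9 libraries, with 3 members at an unadjusted p under 0.05 against 21.7% of all genes, and 0.0413% of all genes were called higher with Dox. DESeq2 called 1 member, Gsta2, with 9 libraries, where it called 2.39% of all genes higher, and 0 members with 6 libraries. The median log2 difference of the members was 0.52, against -0.02 over all genes.

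Gsta2 was 5.44 times higher with Dox than with Tc, and the lowest Dox library (144 normalized counts) exceeded the highest Tc library (61.5). The log2 difference was 2.49 ± 0.41 with a limma adjusted p of 0.0641. With 6 libraries it was 2.52, with a 95% interval from 0.94 to 4.11 that is not adjusted for the number of genes tested, a limma adjusted p of 0.755 and a DESeq2 adjusted p of 0.123. Gsta4 was the other tested member whose Dox and Tc libraries did not overlap, as held for 12.2% of all genes, and its 6-library interval ran from -0.52 to 1.63.

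For the other members the data do not show a difference between the drugs, nor that they acted alike. The 6-library 95% interval of the log2 difference was -0.33 to 2.18 for Gstm1, -0.69 to 3.45 for Gstm3, -1.10 to 1.28 for Gstm2 and -1.73 to 1.82 for Gstm4. It was -2.22 to 1.12 for Gsta3, -4.05 to 2.13 for Gstm6 and -0.84 to 1.92 for Gstt3. The difference of Gstm2 (-0.05 with 9 libraries) was 0.13 when libraries were scaled to the same total, a scaling that shifted the median of all genes by 0.17 both for Dox against control and for Dox against Tc. With that scaling limma called 1 gene higher and 2 lower for Dox against Tc, compared with 5 and 21.

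The 4 separate drug libraries fell into different patterns. The share of all genes outside the control range in a single library was not computed, so the counts below only describe the members. In Dox library 1, 9 of the 10 members lay above every control and Gstt3 lay below every control. In Dox library 2, 7 members lay above every control and 3 members, Gsta3, Gstm4 and Gstm6, lay below every control. Gstm4 did so only narrowly, at 166.8 against a lowest control of 168.3, and was thus near the control level. In Tc library 1, 8 members lay above every control and Gstt3 below. In Tc library 2, 8 members again had values above every control, but these include Gsta1 on 2 reads, under the floor of 3 reads. The other members above the controls in Tc library 2 stood at 1.75 times the control mean at most (Gsta2).

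**Figure D3:**
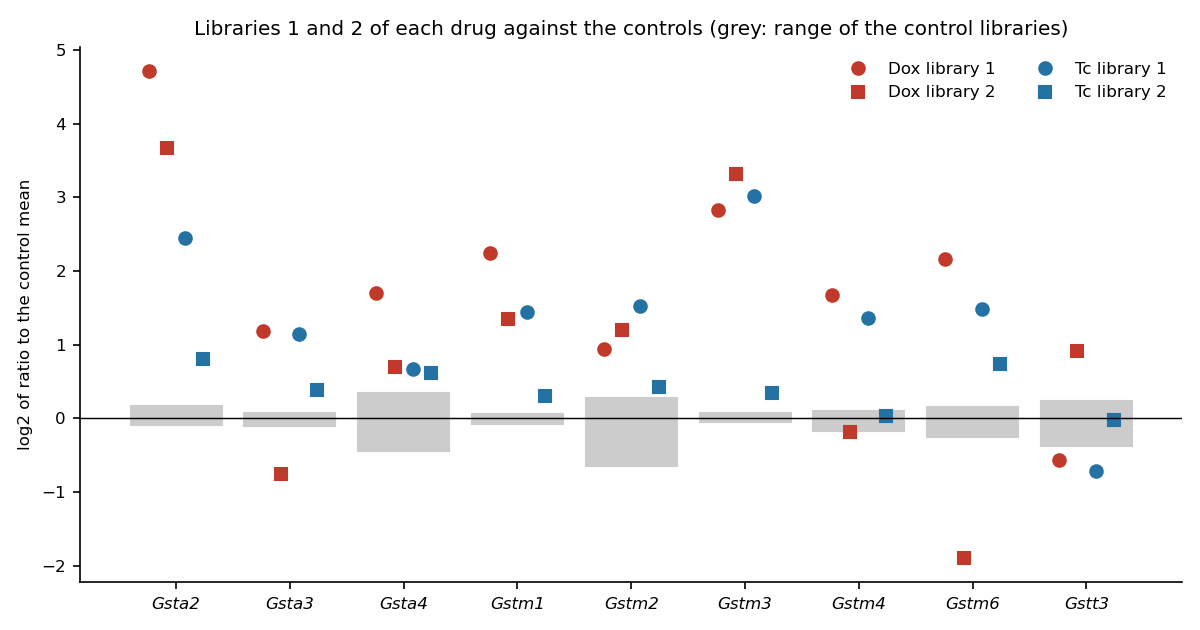
Ratio to the control mean (y axis, log2) of the 9 members detected in the controls, in libraries 1 and 2 of each drug, with the range of the 3 control libraries in grey. Gsta2, Gstm1 and Gstm3 are above the controls in both Dox libraries. Gsta3 and Gstm6 are below them in Dox library 2, where Gstm4 is at the lower edge of the control range, and Gstt3 shows the opposite order.

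Male-predominant liver genes moved with this division. The list of 6 genes was chosen after its values were seen and holds Cyp4a12a, Cyp4a12b, Mup20, Cyp2d9, Elovl3 and Hsd3b5, which rise in male liver around puberty. Their summed level was 1603 to 3598 normalized counts in the controls, 58384 and 3393 in Dox libraries 1 and 2, and 20681 and 1630 in Tc libraries 1 and 2. Hsd3b5 stood at 3.2 to 30.1 in the controls, at 2578 and 0 in Dox libraries 1 and 2, and at 1291 and 5.4 in Tc libraries 1 and 2. A set of 4 Y chromosome genes, also chosen after values were seen, summed to between 1008 and 1743 in every library. Gsta2, Gsta3, Gstm1, Gstm4 and Gstm6 were higher in libraries 1 and 3 of each drug, where the male-predominant genes were high, than in libraries 2. Gsta4 showed this order with Dox only, and Gstm2 and Gstm3 with Tc only. Gstt3 showed the reverse order with both drugs, and Gsta1, Gstm2 and Gstm3 showed it with Dox. The part of the male-predominant genes in the results was not tested. In Dox library 2 the sum of the male-predominant genes was carried by Cyp2d9 (3372). Mup20 (16.1, against 128 to 343 in the controls), Elovl3 (0, against 4.2 to 5.3) and Hsd3b5 lay below every control there. In the same library Gsta2 was at 12.7 times, Gstm3 at 9.99 times, Gstm1 at 2.54 times and Gsta4 at 1.62 times the control mean.

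**Figure D4:**
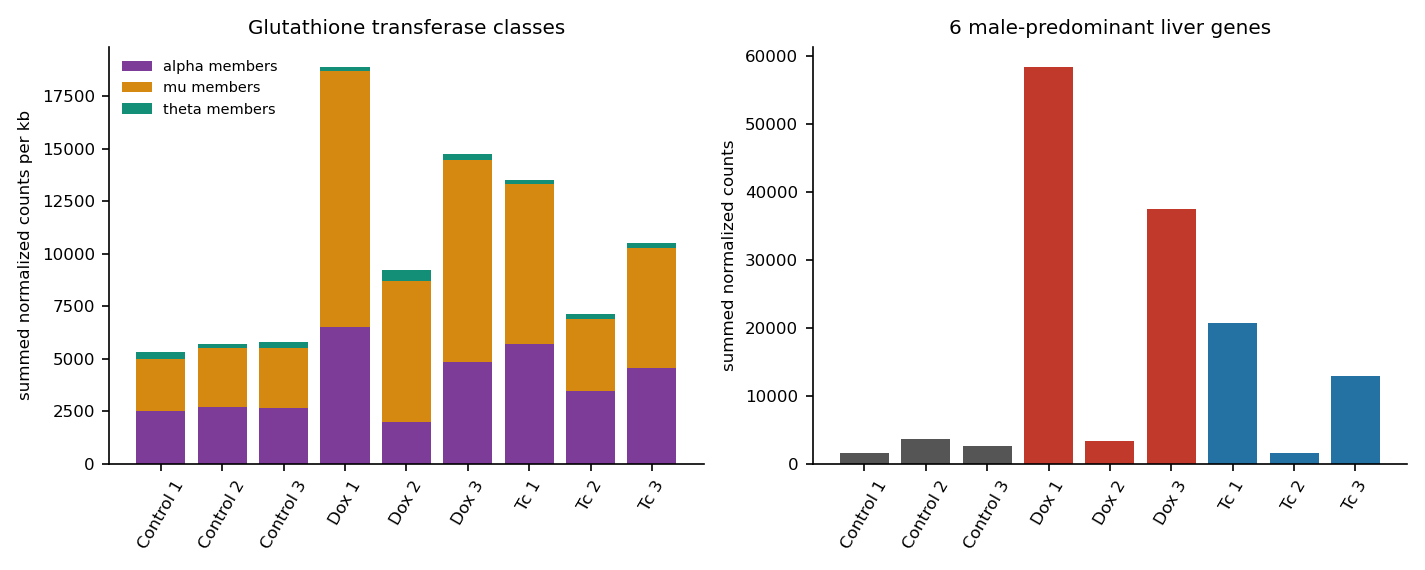
Left, summed normalized counts of the alpha, mu and theta members per kb of the longest protein-coding transcript, in each of the 9 libraries, stacked by class. Right, summed normalized counts of 6 male-predominant liver genes, which is high in Dox and Tc libraries 1 and 3 and within the control range in Dox and Tc libraries 2, where Cyp2d9 makes up most of it.

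The other glutathione transferases had a median log2 difference of -0.18 with Dox. Of 21 genes listed, 13 were tested, and Gstm5, a mu gene next to the members on chromosome 3, was the only one called in the limma fit of 9 libraries, where 3.86% of all genes were called lower with Dox and 0.124% with Tc. It stood at 234, 552 and 444 normalized counts in the controls, at 56.9, 32.2 and 50.1 with Dox and at 71.3, 85.4 and 75.0 with Tc. Gstm5 thus fell with both drugs, with log2 fold changes of -3.07 ± 0.33 (limma adjusted p = 0.00519) and -2.31 ± 0.33 (limma adjusted p = 0.0435), against a member median of 1.05 and 0.92. With 6 libraries, DESeq2 called the fall with Dox (adjusted p = 8.5e-05) and not that with Tc (adjusted p = 0.0587), and limma called neither (adjusted p = 0.559 and 1). Mgst1, the microsomal transferase, stood at 14188 to 18012 in the controls and at 21299, 5321 and 14956 with Dox. Gstp1, the pi-class gene that is higher in male than female mouse liver, stood at 2090 to 2788 in the controls, at 9043 and 713 in Dox libraries 1 and 2, and at 8473 and 1230 in Tc libraries 1 and 2. Gstz1, an enzyme of tyrosine breakdown, stood at 4110 to 4674 in the controls and at 5488 and 2260 in Dox libraries 1 and 2.

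Genes that supply glutathione or export its conjugates were not called by limma. Of 14 genes of glutathione synthesis and recycling, 13 were tested with 0 called by limma with Dox and 6 at an unadjusted p under 0.05, against 29.1% of all genes, and the median log2 difference was -0.26. DESeq2 with 9 libraries called 2 of them lower (Ggct and Chac1), and 0 with 6 libraries. Gpx1, the gene of this list with the highest level, stood at 11202 to 13273 normalized counts in the controls and at 12498 and 5023 in Dox libraries 1 and 2. Gclm stood at 1824 to 2297 in the controls and at 3189.5 and 1161 in those libraries. Gclc, the catalytic subunit of the first step of glutathione synthesis, stood at 1396 to 1560 in the controls and at 3878 and 1207 in Dox libraries 1 and 2. Of 17 genes of conjugate export and mercapturate formation, 15 were tested with 0 called by limma with Dox, and the median was -0.25. Of the 15, 6 had an unadjusted p under 0.05 by limma, against 29.1% of all genes. DESeq2 with 9 libraries called 2 of these higher (Abcc4 and Abcg2), and 0 with 6 libraries. Abcc2, the canalicular pump for glutathione conjugates, stood at 5122 to 6130 in the controls and at 10842 and 6482 in Dox libraries 1 and 2. With Tc, limma called 0 genes of both lists, with 2 and 1 genes at an unadjusted p under 0.05, while DESeq2 with 9 libraries called Ggct lower.

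Among 13 tested genes of an NRF2 list of 14, limma called 1 higher with Dox, against 1.14% of all genes. DESeq2 with 9 libraries called 3 higher (Ephx1, Ugdh and Hmox1), against 3.2%. The median log2 difference of this list with Dox was 0.46, and 12 of the 13 values were positive. By limma 4 had an unadjusted p under 0.05, against 29.1% of all genes. With Tc limma called 0, where 1 had an unadjusted p under 0.05 and DESeq2 with 9 libraries called Ephx1. Ephx1, the microsomal epoxide hydrolase, stood at 501, 979 and 739 normalized counts in the controls and at 6141, 1279 and 4226 with Dox, with a log2 fold change of 2.17 ± 0.56 (limma adjusted p = 0.0490). The call was lost with 6 libraries in DESeq2 (adjusted p = 0.148). Nqo1, an NRF2 target, stood at 46.6 to 57.5 in the controls and at 41.1 and 93.2 in Dox libraries 1 and 2. Among the 12 genes of a CAR and PXR list, limma called 2 higher with Dox (Cyp2c55 and Cyp3a25), against 1.14% of all genes. DESeq2 with 9 libraries called these 2 genes, Cyp2b10 and Ces2a higher and Cyp2b9 lower, against 3.2% and 6.2% of all genes. The median log2 difference of this list with Dox was 0.45, with 9 of 12 values positive. By limma 4 of the 12 had an unadjusted p under 0.05, against 29.1% of all genes. Cyp2b9 stood at 2487 to 3247 normalized counts in the controls and at 1.1, 178 and 69.5 with Dox, with a limma adjusted p of 0.0505. With Tc limma called 0, where 2 had an unadjusted p under 0.05 and DESeq2 with 9 libraries called Cyp2c55. Such a p was found for 11.7% of all genes with Tc by limma, and DESeq2 called 0.529% higher. Cyp3a25 stood at 1623 to 1950 in the controls and at 4729, 5674 and 4938 with Dox, with a log2 fold change of 1.48 ± 0.25 (limma adjusted p = 0.0150; DESeq2 with 6 libraries, adjusted p = 0.0555). The Cyp2c55 fold change had a limma adjusted p of 0.0499, with values of 245 and 17.3 in Dox libraries 1 and 2. DESeq2 with 6 libraries called Cyp2c55 as the 1 gene of this list, against 0.355% of all genes called higher.

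The Kupffer cell and endothelial marker lists summed below every control library with both drugs. With Tc limma called 0 markers of either list, and DESeq2 with 9 libraries called Lyve1 lower. Of 5 Kupffer cell markers, all tested, limma called Clec4f and Adgre1 lower with Dox, against 3.86% of all genes, and DESeq2 with 9 libraries called all 5 lower, against 6.2% of all genes. The summed level of the list was 5695 to 9403 normalized counts in the controls, 1571 to 3770 with Dox and 2678 to 5476 with Tc. Of 4 endothelial markers, Stab2 was called lower, and the list summed to 3468 to 3697, 1669 to 2257 and 2557 to 3041 in the same order. DESeq2 with 6 libraries called Clec4f and Stab2 but not Adgre1. Pericentral hepatocyte markers, which share the zone where several glutathione transferases are highest, had 0 of 8 called by limma with Dox. Of these markers, 4 had an unadjusted p under 0.05 by limma, against 29.1% of all genes. DESeq2 with 9 libraries called 2 higher (Oat and Cyp1a2), and the sums were 46139 to 52486 in the controls and 52565 to 81240 with Dox. Rhbg, a pericentral ammonia transporter, was called lower with Dox than with Tc by limma (adjusted p = 0.0498), as were 0.174% of all genes, and not by DESeq2 with 6 libraries (adjusted p = 0.282). Rhbg stood at 113, 89.4 and 94.1 normalized counts in the controls, 52.6, 69.0 and 71.3 with Dox, and 134, 147 and 175 with Tc. Of 7 periportal markers, limma and DESeq2 called 0, with 1 at an unadjusted p under 0.05 by limma, and the sums were 76842 to 102527 in the controls and 116676 to 181186 with Dox. Among the remaining lists, limma called Sox9 of the bile duct markers higher with Dox, against 1.14% of all genes. It called Hba-a1 of the erythroid markers lower, against 3.86%, and DESeq2 with 6 libraries called neither gene. Of 3 tested bile duct markers, 2 fitted values were positive and 1 negative. Of 3 tested erythroid markers, 1 was positive and 2 were negative. Alas2, an erythroid marker, stood at 119 to 335 in the controls and at 1368, 46.0 and 828 with Dox. Limma and DESeq2 called 0 of 4 stellate markers (1 at an unadjusted p under 0.05 by limma) and 0 of 3 tested neutrophil markers (0 at that p by limma), and no lymphocyte marker reached the level for testing. The part of cell composition in the members' results was not tested.

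The genes whose pattern over the 9 libraries was most like that of Gsta2, by Pearson's r of log2(normalized count + 1) and outside the members, were Fzd5 (0.986), Dhx33 (0.985), Zfp871 (0.981), Hmgn1 (0.974) and Gpam (0.972). These values are descriptions over 9 libraries that include the mixed libraries 3. Fzd5 stood at 86.8 to 103 normalized counts in the controls, 203 to 238 with Dox and 107 to 131 with Tc, a smaller range than that of Gsta2.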

How the data were processed

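Liver RNA of 3 groups with 3 libraries each was sequenced in reads of 86 bases (single-end, directional kit). The authors trimmed reads with cutadapt, aligned them to mm10 with STAR, counted uniquely mapped reads per gene with HTSeq 2.0.5 and deposited normalized counts (treated here as a signal), each a count over its library's DESeq2 1.42.0 size factor. The strand setting of the counting is not given in the sources used here. The spacing of low values gave back whole reads for 100% of values, within a tolerance of 0.01 reads.

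The members and lists were chosen with earlier results of these data known. Log2(normalized count + 1) was tested with limma 3.58.1 (R 4.3.3) in 1 model with a trend, keeping genes whose mean reached 10, adjusted by the Benjamini-Hochberg method. Called genes changed over 2-fold with an adjusted p under 0.05. DESeq2 1.42.0 and edgeR 4.0.16 on recovered reads were alternatives, as were other pseudocounts, filters, scalings, weights, a replicate block and each library left out. The scripts were tested on simulated data. The labels do not say that the libraries came from separate animals, so p-values measure the spread between these libraries, which may be technical. Named genes were all members, every gene of a list called by limma in any comparison, otherwise at most 3 genes a list with the highest mean, and the 5 genes outside the members, with a mean of at least 50, most like Gsta2. Nqo1, the genes named from DESeq2 calls alone, the comparison of Dox libraries 1 and 2 by Cyp2b10, Hmox1 and hepatocyte markers, and the male-predominant genes were chosen after their values were seen. Same-numbered Dox and Tc libraries, by the numbers in the labels, deviated together (r = 0.287, 0.321 and 0.182 over 12100 genes, with libraries 3 not independent), and controls paired with neither (-0.081 to 0.055). Coordinates are from GENCODE (GRCm38), coding sequences were aligned with Biopython 1.88, and promoters are RefSeq windows.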

Additional observations from a re-analysis of the deposited data

How the results depend on the processing

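Of the members' fitted values under alternatives, 200 of 234 stayed on the same side of the threshold for Dox against control. Any turn of sign among these values was smaller than the standard error of the main fit. Of the rest, 21 lost the call, 8 gained it, 4 turned sign by at least that error without a call, and 1 turned sign with a call. For Tc against control 216 of 234 stayed as described, and 18 gained a call. For Dox against Tc 227 of 243 stayed, 10 gained a call and 6 turned sign by at least that error without a call. The value that turned sign with a call was Gstm6 with Dox replicate 2 as the only Dox library (-1.86). Among the values that turned sign without a call, Gsta3 was at -0.75 in that fit and at -0.01 without Dox replicate 1. For Dox against control, 0 members were called by limma without libraries 3, and 1 to 6 with single libraries left out. Without any one control library or without Dox library 3, Gsta2 was the only member called, and without Dox library 2 Gstm4 and Gstm6 were called as well. The median was 1.74 with Dox replicate 1 as the only Dox library. For Tc against control, DESeq2 called 3 members, the fit of only those groups 1, array weights 4 and an unadjusted p 3, with 2 when Dox library 1 or Dox library 2 was the only Dox library and 0 to 2 with single libraries left out. For Dox against Tc, DESeq2, array weights and an unadjusted p each called 1 member, Dox replicate 2 alone 4, and single libraries left out 0 to 1. The data had been seen when the fits with 1 Dox library and the blocked fit of both drugs alone were added. What caused these shifts was not tested. Over all genes, 138 were called higher with Dox by limma, 387 by DESeq2 with 9 libraries and 43 by DESeq2 with 6. With the replicate number as a block, 4, 0 and 0 members were called for Dox against control, Tc against control and Dox against Tc, and a replicate block with only Dox and Tc in the fit called 0, so the block changed no member's call. Depth limits Gsta1, with at most 23 reads in a library.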
